A study of Homo sapiens with 7 samples.

Results

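A set of 10 genes for inflammatory chemokines and cytokines that tumour cells can secrete was chosen by name: CXCL1, CXCL2, CXCL3, CXCL5, CXCL8, CCL20, IL6, IL1A, IL1B and LIF. Of these, 6 had values among the 13142 genes of the table, namely CXCL2, CXCL5, CXCL8, CCL20, IL6 and LIF, and these 6 all passed the filter on low values. CXCL1, CXCL3, IL1A and IL1B were not analysed here. The libraries came from BHT-101, a human cell line of anaplastic thyroid cancer. The knockout (KO) group held 4 lines of BHT-101 in which stop codons cut short ASH1L, an enzyme that methylates histones, each with 1 library: KO1 (stop after residue 413 on both alleles), KO2 (after 610 on both alleles), KO3 (after 2129 on both alleles) and KO4 (after residues 2169 and 2174). They were set against 3 biological replicates of wild-type (WT) cells. The labels name the KO lines by clone numbers, and no line with intact ASH1L that had gone through cloning was analysed, so loss of ASH1L and other differences of a clone from the WT culture cannot be told apart.

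CXCL2, CXCL5 and CXCL8 are small secreted proteins that draw neutrophils through the receptors CXCR1 and CXCR2, and CCL20 draws lymphocytes and dendritic cells through CCR6. IL-6 and LIF both signal through the shared receptor chain gp130, encoded by IL6ST, to the kinase JAK1 and the transcription factor STAT3. In epithelial and tumour cells many of these genes are switched on by NF-kB, a transcription factor that inhibitors such as IkB-alpha (NFKBIA) and A20 (TNFAIP3) hold in check, and in mouse macrophages Ash1l is known to restrain Il6 by keeping A20 levels up.

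The promoters of 5 of the 6 genes were found in the RefSeq table (build GRCh38.p14). They are windows of 300 bases that reach from 250 bases before to 50 after the annotated transcript start. The windows of IL6, CCL20 and CXCL5 are printed because these genes behaved most differently: IL6 was below WT in every KO clone, CCL20 ranged most widely between clones, and CXCL5 was near its WT level or above it in all clones but KO4. Capitals mark matches to the NF-kB-like motif GGNNTTTCC, where N is any base, searched on both strands. The windows are chr7:22726950-22727249 (plus strand) for IL6, chr2:227813592-227813891 (plus strand) for CCL20 and chr4:73998628-73998927 (minus strand) for CXCL5, each read along its gene.
IL6: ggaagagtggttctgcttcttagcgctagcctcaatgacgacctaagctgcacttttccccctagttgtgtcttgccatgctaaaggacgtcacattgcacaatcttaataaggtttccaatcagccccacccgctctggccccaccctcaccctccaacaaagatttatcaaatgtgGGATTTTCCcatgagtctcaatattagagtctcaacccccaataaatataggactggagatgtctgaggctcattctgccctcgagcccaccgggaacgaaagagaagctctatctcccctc
CCL20: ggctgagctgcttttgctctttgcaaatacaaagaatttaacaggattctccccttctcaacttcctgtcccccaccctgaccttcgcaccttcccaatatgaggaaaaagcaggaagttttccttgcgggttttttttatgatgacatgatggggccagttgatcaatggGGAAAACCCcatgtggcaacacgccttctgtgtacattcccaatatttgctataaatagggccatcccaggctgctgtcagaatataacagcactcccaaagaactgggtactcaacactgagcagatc
CXCL5: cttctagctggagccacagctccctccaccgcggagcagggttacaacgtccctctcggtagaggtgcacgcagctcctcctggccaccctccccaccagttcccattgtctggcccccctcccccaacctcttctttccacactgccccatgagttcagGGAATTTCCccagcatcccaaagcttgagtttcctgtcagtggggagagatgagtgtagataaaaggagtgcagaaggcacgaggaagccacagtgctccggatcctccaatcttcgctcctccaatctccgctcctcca
In all 5 windows a match lay within 100 bases before the start. In IL6 it was GGATTTTCC, from -72 to -64 relative to the start. In CCL20 it was on the opposite strand, printed as GGAAAACCC, from -79 to -71. CXCL5, CXCL8 and CXCL2 each carried GGAATTTCC, ending 82, 83 and 69 bases before the start, and CXCL2 had a second match, GGGCTTTCC, from -53 to -45. CXCL8 also held TGACTCA, from -137 to -131, a match to the AP-1-like motif TGANTCA. Among all 35116 promoter windows of this length 6.26% held GGNNTTTCC and 7.71% held TGANTCA. These are matches of letters and no measure of binding. The genes that share them differed in which clones they changed, as given below, and the part of the motifs in this was not tested.

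Values are log2 RPKM, read counts scaled to gene length and library size on a log2 scale, and a difference of 1 is a doubling. Each clone is 1 library, so p-values for KO against WT measure the spread between these clones and between these WT samples. In the fits of a single clone against WT, the spread comes from the WT samples alone. Library sizes estimated from the steps between the lowest values ran from 44000000 to 70400000 reads in the clones and from 56400000 to 63000000 in WT. ASH1L was at log2 RPKM 2.69, 2.54, 2.42 and 3.74 in KO1 to KO4, against 3.34, 3.30 and 3.22 in WT1 to WT3, and a stop codon need not lower the RNA, so this level does not check the labels. ASH1L fell in KO1, KO2 and KO3 and rose in KO4 in the single-clone fits described below (limma, adjusted p between 0.00234 and 0.0272). Across 11154 tested genes the median SD was 0.30 log2 units among the clones and 0.10 among the WT samples. All 6 epithelial markers were measured (EPCAM, CDH1, KRT7, KRT8, KRT18 and KRT19), with a summed level of 287 to 651 RPKM in the clones and 562 to 680 RPKM in WT. Of 8 thyroid follicular markers only PAX8 and HHEX had values, summing to 1.47 to 6.09 RPKM in the clones and 1.93 to 2.48 RPKM in WT. Of 15 leukocyte markers CD3D, CD14 and ITGAM had values, and their sum was 0.675 to 3.18 RPKM in the clones and 9.64 to 12.3 RPKM in WT. CD3D made up most of the WT sum, at log2 RPKM -7.75, -0.96, -2.51 and -0.47 in KO1 to KO4, against 3.05, 3.29 and 3.39 in WT1 to WT3. The other 2 did not follow it in every clone. CD14 was at -0.72, -0.17, -1.72 and 1.18 in KO1 to KO4, against -0.32, -0.27 and 0.49 in WT1 to WT3, so that KO4 was above WT. ITGAM was at -4.01, -0.34, -0.58 and -2.41 in KO1 to KO4, against -0.87, -1.21 and -1.16 in WT1 to WT3, so that KO2 and KO3 were above WT. The general leukocyte marker PTPRC was not analysed here. Of 15 fibroblast and endothelial markers COL1A1, LUM, PDGFRA and PECAM1 had values, summing to 20.4 to 70.2 RPKM in the clones and 51.4 to 55.4 RPKM in WT. All libraries came from BHT-101 or its KO lines, and the part of these markers in the results below was not tested. In bulk RNA, fewer cells that express a gene and less of its RNA per cell cannot be told apart.

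IL6, the gene of the cytokine interleukin-6, was lower in every KO clone than in any WT sample. Its level was log2 RPKM -1.49, -1.27, -1.08 and -0.51 in KO1, KO2, KO3 and KO4, against 0.49, 0.59 and 1.28 in WT1, WT2 and WT3. The groups did not overlap, KO4 came closest to WT, and WT3 stood above the other WT samples. In reads, KO1 to KO4 held about 36, 54, 43 and 102 for IL6, while WT1 to WT3 held about 164, 196 and 300. The exact 95% Poisson intervals, which cover counting error only, reached up to 124 reads in KO4 and down to 140 reads in WT1. The mean was -1.09 ± 0.42 (SD, n = 4) in KO and 0.79 ± 0.43 (SD, n = 3) in WT, a log2 fold change of -1.87 ± 0.37 (SE), or 0.273 times the WT level. This did not pass over all genes (limma, adjusted p = 0.0889, unadjusted p = 0.00114), where 0.412% of the tested genes passed, and the adjusted p was 0.0563 to 0.460 in 16 other settings. A two-sided exact permutation test, in which the labels can be assigned in 35 ways, gave p = 0.0286, the smallest it can give. Such tests were run without adjustment for the 6 genes, for ASH1L and for the genes named from the related lists below. With 1 RPKM added to each value the log2 fold change was -0.89. An order with all clones below all WT samples was seen in 10.1% of the tested genes, and one with all clones above in 8.88%. IL6 passed the filter on low values through the WT samples alone.

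Set against WT one clone at a time, IL6 fell in each. KO1 had a log2 difference of -2.27 (limma, adjusted p = 0.00256) and KO2 one of -2.06 (adjusted p = 0.00640), each ± 0.34 (SE). KO3 followed at -1.87 (adjusted p = 0.00858), and KO4 differed least, at -1.30 (adjusted p = 0.0350). These fits take the spread of a lone clone from the 3 WT samples, although clones varied more than these, and they call many genes. Of the tested genes KO1 had 44.1% called, KO2 33.5%, KO3 34.1% and KO4 24.8%, with 2.3% called lower in all 4 and 1.13% called higher in all 4. The 4 comparisons share the WT samples. The call in KO4 was lost without WT2, with 1 RPKM added to each value, and after position centring, in which the median difference of genes within 5 Mb is subtracted. The 27 tested genes within 5 Mb of IL6 on chromosome 7 had median differences between -0.09 and 0.09 in the clones. Its gene body (ENSG00000136244, chromosome 7, 22725884 to 22732002, plus strand, hg38 as for the positions of the other genes) is overlapped on the other strand by STEAP1B and AC073072.1, and without stated strand use their reads cannot be told apart.

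**Figure D1:**
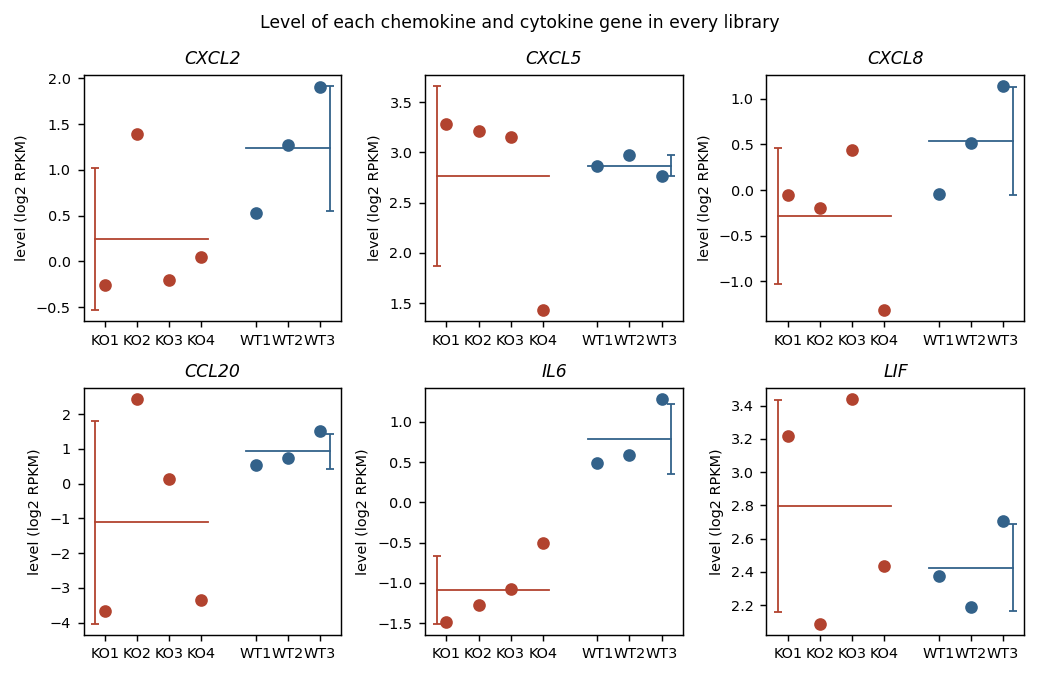
Level in log2 RPKM (vertical axis, a different range in each panel) of the 6 genes in the 4 KO clones (red, left) and the 3 WT samples (blue, right). Points are libraries, horizontal lines are group means and bars at the sides are SDs. IL6 is the gene with every clone, at -1.49 to -0.51, below every WT sample, at 0.49 to 1.28.

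LIF (ENSG00000128342, chromosome 22, 30240447 to 30246851, minus strand), the other gp130 cytokine, showed no such pattern. Its level was log2 RPKM 3.22, 2.09, 3.44 and 2.44 in KO1 to KO4, against 2.38, 2.19 and 2.71 in WT1 to WT3. KO1 and KO3 were above all WT samples, KO2 was below them and KO4 lay among them. LIF rose 1.74-fold in KO1 (0.80 ± 0.20 SE, limma, adjusted p = 0.0191) and 2.02-fold in KO3 (1.02 ± 0.20, adjusted p = 0.0114). In KO2 the difference was -0.34 ± 0.20 and in KO4 it was 0.01 ± 0.20, neither of which passed. As a group the clones were at 2.80 ± 0.64 (SD, n = 4) and WT at 2.42 ± 0.26 (SD, n = 3), a log2 fold change of 0.37 ± 0.34 (SE) that did not pass (limma, adjusted p = 0.614; exact two-sided permutation p = 0.4). After position centring the call in KO3 was lost, with a difference of 0.74, where the 49 genes within 5 Mb of LIF on chromosome 22 had a median of 0.27 in that clone. LIF rests on 1067 to 1896 reads in the clones and 1140 to 1547 in WT, and it is overlapped on the other strand by LIF-AS1 and AC004264.1.

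CCL20 (ENSG00000115009, chromosome 2, 227805739 to 227817564, plus strand), the ligand of CCR6, spanned the widest range and split the clones. It was lowest in KO1 and KO4, at log2 RPKM -3.66 and -3.35, lay somewhat below WT in KO3, at 0.14, and stood above WT in KO2, at 2.44. The WT samples were at 0.53, 0.75 and 1.50. About 6 reads in KO1 and 11 in KO4 carried these values, with exact 95% Poisson intervals of 2.20 to 13.1 and 5.49 to 19.7. KO2 held about 545 reads and KO3 about 77, against 129, 169 and 269 in WT1 to WT3. Read estimates of CCL20 lay up to 0.43 reads from a whole number. For the other members, values under 300 reads lay at most 0.06 away. The reads of CCL20 are thus less sure, and the reason was not tested. CCL20 fell to 0.0416 times the WT level in KO1 (-4.59 ± 0.38 SE, limma, adjusted p = 0.000201) and to 0.0517 times in KO4 (-4.27 ± 0.38, adjusted p = 0.000762). It rose 2.84-fold in KO2 (1.51 ± 0.38, adjusted p = 0.0258), and in KO3 the difference of -0.79 ± 0.38 did not pass. Without WT2 the rise in KO2 was no longer called, and without WT1 KO3 was called lower. With clones on both sides, the group difference of -2.03 ± 1.44 (SE) did not pass (limma, adjusted p = 0.519; exact two-sided permutation p = 0.343), and it was -3.21 without KO2 and -0.55 with 1 RPKM added, where the difference in KO1 was -1.44 and that in KO4 -1.41. The 32 genes within 5 Mb on chromosome 2 had medians of -0.36 in KO1 and -0.15 in KO4. Among the 6 epithelial markers, EPCAM, CDH1 and KRT8 were likewise below all WT samples in KO1 and KO4 and above them in KO2, and the other 3 were not. KRT18 was below all WT samples in every clone, KRT7 was above them in KO1 and below them in KO3 and KO4, and KRT19 was below them in KO1 and KO3 and above them in KO2. CDH1, the gene of the epithelial cadherin, had the widest range of the 6, at log2 RPKM -5.86, 1.96, -2.20 and -2.83 in KO1 to KO4, against 0.75, 0.78 and 0.47 in WT1 to WT3. The part of these markers in the result was not tested.

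**Figure D2:**
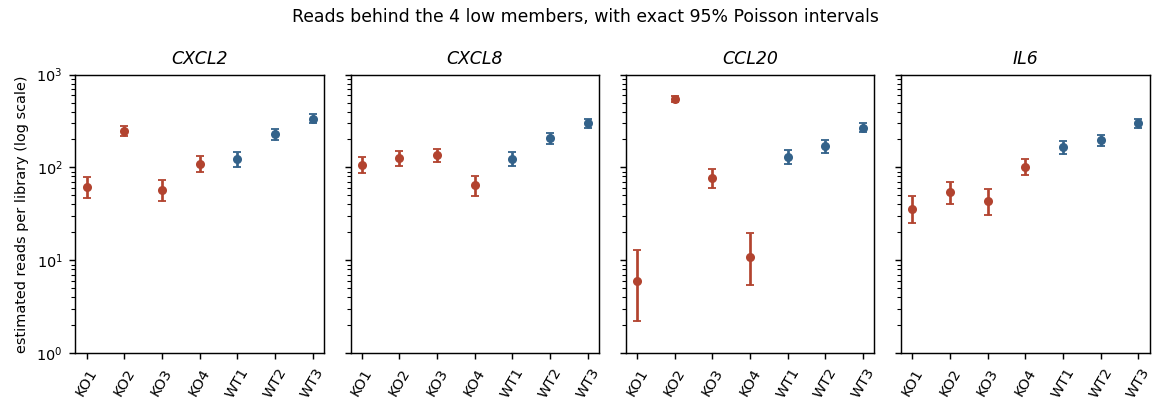
Estimated reads per library on a log axis for the 4 genes with the lowest levels, in KO clones (red, left) and WT samples (blue, right). Bars are exact 95% Poisson intervals, and library sizes are not scaled out. CCL20 holds about 6 and 11 reads in KO1 and KO4, while IL6 holds between 36 and 102 reads in the clones.

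The 3 neutrophil chemokines with values lie close together on chromosome 4, between 73740506 and 74099293 (hg38), a stretch of 359 kb. In KO4 all 3 were below every WT sample, CXCL2 by a difference that did not pass. Outside KO4 they did not move as a block. CXCL2 was low in KO1, KO3 and KO4, CXCL8 was lowest in KO4, and CXCL5 was low in KO4 and slightly above WT in the others. The genes within 5 Mb had medians between -0.03 and 0.32 in the clones, with the highest in KO3.

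CXCL2 (ENSG00000081041, chromosome 4, 74097035 to 74099293, minus strand) was at log2 RPKM -0.26, 1.39, -0.21 and 0.05 in KO1 to KO4, against 0.53, 1.27 and 1.90 in WT1 to WT3. KO2 lay inside the WT range and the other clones lay below it. CXCL2 fell in KO1 (-1.50 ± 0.47 SE, limma, adjusted p = 0.0398). In KO3 (-1.44 ± 0.47, adjusted p = 0.0546) and KO4 (-1.18 ± 0.47, adjusted p = 0.11) it did not pass. These calls follow the WT samples, which differed 2.58-fold among themselves: KO1 was lost without WT2, KO3 was gained without WT1 or without WT3, and KO4 was gained without WT1. KO1 was lost with quantile normalization, with 1 RPKM added, without a variance trend and after position centring, where KO3 was gained. As a group the clones were at 0.24 ± 0.78 (SD, n = 4) and WT at 1.23 ± 0.69 (SD, n = 3), a log2 fold change of -0.99 ± 0.49 (SE) that did not pass (limma, adjusted p = 0.369; exact two-sided permutation p = 0.143). CXCL2 is nearly identical in part to CXCL1 and CXCL3, with which its transcripts in GENCODE share 12.5% of their 50-base words, so its reads could have been split or discarded in counting and its level is uncertain.

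CXCL8 (ENSG00000169429, chromosome 4, 73740506 to 73743716, plus strand), the gene of interleukin-8, was the lowest of the 3 in most libraries. It was at log2 RPKM -0.06, -0.20, 0.43 and -1.32 in KO1 to KO4, against -0.05, 0.52 and 1.14 in WT1 to WT3. KO4 lay well below all WT samples, KO1 and KO2 just below the lowest of them, and KO3 among them. CXCL8 fell in KO4, to 0.277 times the WT level (-1.85 ± 0.42 SE, limma, adjusted p = 0.0231), on about 64 reads against 124, 205 and 299 in WT1 to WT3. The differences in KO1, KO2 and KO3 were -0.59, -0.74 and -0.10, each ± 0.42, and did not pass. The call in KO4 was lost without WT2 and with 1 RPKM added, and KO1 and KO2 were called lower without WT1. The group difference was -0.82 ± 0.48 (SE, limma, adjusted p = 0.434; exact two-sided permutation p = 0.143).

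CXCL5 (ENSG00000163735, chromosome 4, 73995642 to 73998779, minus strand) varied least among the WT samples and was, with LIF, one of the 2 most abundant per length in every library but KO2, where CCL20 was above LIF. It was at log2 RPKM 3.28, 3.21, 3.16 and 1.43 in KO1 to KO4, against 2.87, 2.97 and 2.77 in WT1 to WT3. KO1, KO2 and KO3 were all above every WT sample, by little, and KO4 was far below. CXCL5 fell to 0.369 times the WT level in KO4 (-1.44 ± 0.12 SE, limma, adjusted p = 0.000643), and this call held in all 11 other settings of that comparison. It rose 1.33-fold in KO1 (0.41 ± 0.12, adjusted p = 0.0349), a call lost without WT2 and after position centring. In KO2 and KO3 the differences of 0.34 and 0.29 did not pass. The group difference of -0.10 ± 0.44 (SE, limma, adjusted p = 0.937) turned to 0.35 without KO4.

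**Figure D3:**
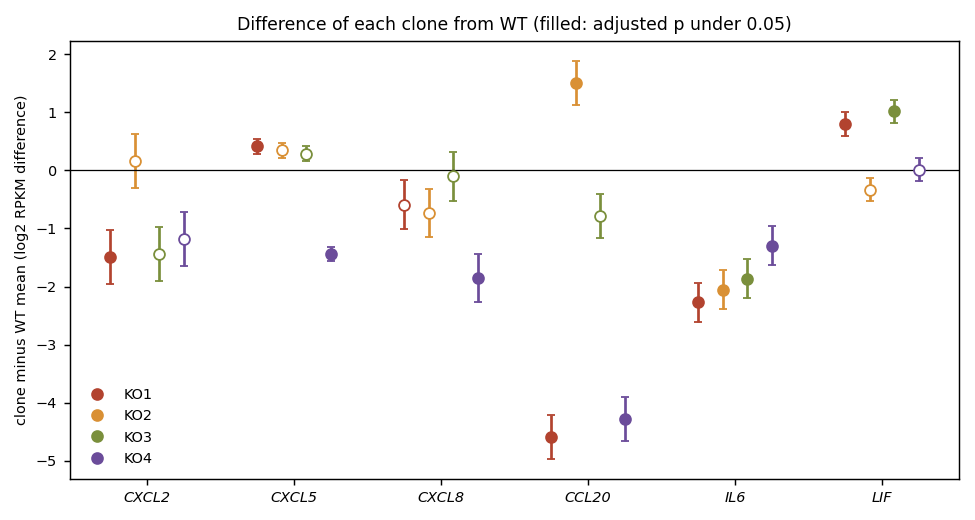
Difference of each clone from the WT mean in log2 RPKM (vertical axis) for the 6 genes, with SE bars whose spread comes from the WT samples. Filled points have an adjusted p under 0.05 in the single-clone fits. IL6 is filled and below 0 in all 4 clones, while CCL20 runs from -4.59 in KO1 to 1.51 in KO2.

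Over the 24 pairs of a gene and a clone, 9 were called lower and 4 higher. CXCL2, CCL20 and IL6 fell in KO1, where CXCL5 and LIF rose. IL6 fell and CCL20 rose in KO2, while in KO3 it was LIF that rose beside the fall of IL6. KO4 had 4 lower calls, of CXCL5, CXCL8, CCL20 and IL6, and none higher. Among all tested genes KO1 had 24.9% called lower and 19.2% higher, KO2 18.0% and 15.5%, KO3 19.9% and 14.2%, and KO4 14.4% and 10.4%. A called gene is thus a common event in each clone. For KO against WT as groups limma called 0 of the 6 genes, of which IL6 was the 1 below 0.05 unadjusted (15.7% of all tested genes were), and 0 passed with voom, which weights log values by the reads behind them. The median log2 fold change of the 6 genes was -0.91, against -0.02 over all tested genes. The filter let IL6 in through WT alone, so this median supports nothing by itself, and no test of the list was made.

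The WT samples differed from each other in 5 of these 6 genes more than in most. WT3 was the highest WT sample for 5 of the 6 genes, all but CXCL5, against 38.0% of all tested genes. The SD among the WT samples was 0.69 for CXCL2, 0.59 for CXCL8, 0.51 for CCL20, 0.43 for IL6 and 0.26 for LIF, larger than in 92.1% to 99.6% of tested genes. For CXCL5 it was 0.10, near the median. The counting error of a single WT library was at most 0.13 log2 units for these genes and 0.04 for CXCL5. These differences enter every comparison with WT, and WT1 was the lowest WT sample for IL6, CXCL2, CXCL8 and CCL20.

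The receptor side was covered only in part. Of 15 receptor and decoy genes 8 had values and 7 were tested, and limma called 0 of them for KO against WT (0 below 0.05 unadjusted). The chemokine receptors CXCR1, CXCR2 and CCR6 were not analysed here. OSMR, a gp130 partner chain, was at 4.51, 3.33, 3.44 and 4.55 in KO1 to KO4, against 4.50, 4.73 and 4.73 in WT1 to WT3, and it fell in KO2 and KO3 in the single-clone fits. IL6R, the chain that binds IL-6, was at 0.97, 3.64, 3.02 and 1.87 against 3.43, 3.44 and 3.36. LIFR, the chain that binds LIF, was at 1.33, 0.67, -1.55 and 2.11 against -0.21, -0.30 and -0.49. The decoy receptor IL1R2 was at -6.09 in KO1 and -0.19 in KO4, at 2.39 in KO2 and 1.63 in KO3, and between 1.99 and 2.34 in WT. The median over the 7 genes was -0.70, with 4 negative and 3 positive.

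Other secreted signals also varied by clone. Of 21 other chemokines 5 had values and 3 were tested, and of 28 other cytokines 12 had values and 9 were tested. For KO against WT limma called 0 of either, with 0 chemokines and 4 cytokines below 0.05 unadjusted (15.7% of all tested genes), and the medians were -0.75 and -0.53. The chemokines were 3 negative and 0 positive, and the cytokines 6 negative and 3 positive. These 3 positive cytokine genes had log2 fold changes of 0.97 to 1.05 and did not pass. They are not among the cytokine genes named below, which had the smallest unadjusted p. CX3CL1, the membrane-bound chemokine fractalkine, was at -3.19, 2.62, 2.32 and -0.83 in KO1 to KO4, against 1.63, 1.67 and 2.18 in WT1 to WT3. CXCL16 was at -1.77, 2.68, 0.87 and -0.32 against 1.01, 1.06 and 1.27. CCL5, which draws T cells, was at 1.15, 2.30, 0.62 and 3.27 against 2.42, 2.39 and 2.60. In CX3CL1 and CXCL16, as in CCL20, KO1 and KO4 were below WT and KO2 was above it, all called in the single-clone fits. Of the 9 cytokine genes 3 had all clones below all WT samples, an order seen in 10.1% of all tested genes: CSF2, the growth factor GM-CSF, TSLP, an epithelial cytokine that acts on dendritic cells, and IL18. CSF2 was at -1.44, 0.65, 1.72 and -1.77 against 2.27, 1.82 and 2.04, a log2 fold change of -2.25 ± 0.82 (SE, limma, adjusted p = 0.260). TSLP was at -3.69, 0.69, 0.87 and -1.50 against 1.57, 1.71 and 1.39, a log2 fold change of -2.46 ± 1.06 (limma, adjusted p = 0.317). With 1 RPKM added the log2 fold changes of CSF2 and TSLP were -1.29 and -1.12, and that of TSLP was -1.54 without KO1. IL18, an IL-1 family cytokine on chromosome 11, was at 2.66, 3.19, 2.56 and 2.58 against 3.79, 3.86 and 3.66. Its log2 fold change of -1.02 ± 0.17 (limma, adjusted p = 0.0682) was -0.32 ± 0.16 after position centring, and it passed with quantile normalization (adjusted p = 0.0431) and without KO2 (adjusted p = 0.0133). For IL6 position centring gave -1.89 ± 0.37. CLCF1, another gp130 cytokine, had a log2 fold change of -0.53 ± 0.18 (limma, adjusted p = 0.231).

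The NF-kB list held subunits, kinases, adaptors and inhibitors of the factor, and all 28 of its genes had values and 27 were tested. For KO against WT limma called 0, with 4 below 0.05 unadjusted, and the median was -0.06 with 15 negative and 12 positive. All clones were above all WT samples in 5 of the 27, against 8.88% of all tested genes, and below them in none. MAP3K14, the kinase NIK of the non-canonical arm, had a log2 fold change of 0.80 ± 0.22 (SE, limma, adjusted p = 0.170), CYLD, a deubiquitinase that dampens NF-kB, 0.45 ± 0.15 (adjusted p = 0.206), and the adaptors TRAF6 and TRAF2 0.41 ± 0.14 and 0.33 ± 0.14. After position centring that of TRAF2 was -0.022. TNFAIP3, which encodes A20, was at 0.55, 2.08, 1.87 and 0.19 in KO1 to KO4, against 1.27, 0.79 and 1.24 in WT1 to WT3. NFKBIA was at 3.85, 5.49, 5.21 and 3.87 against 5.30, 4.74 and 5.21. For both inhibitors KO1 and KO4 were below all WT samples, and KO2 was above them. TNFAIP3 rose in KO2 and KO3 and fell in KO4, and NFKBIA fell in KO1 and KO4, in the single-clone fits. Neither passed as a group, with log2 fold changes of 0.07 ± 0.48 (limma, adjusted p = 0.961) and -0.48 ± 0.44 (adjusted p = 0.619), and that of TNFAIP3 turned negative when WT2, KO2 or KO3 was left out.

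**Figure D4:**
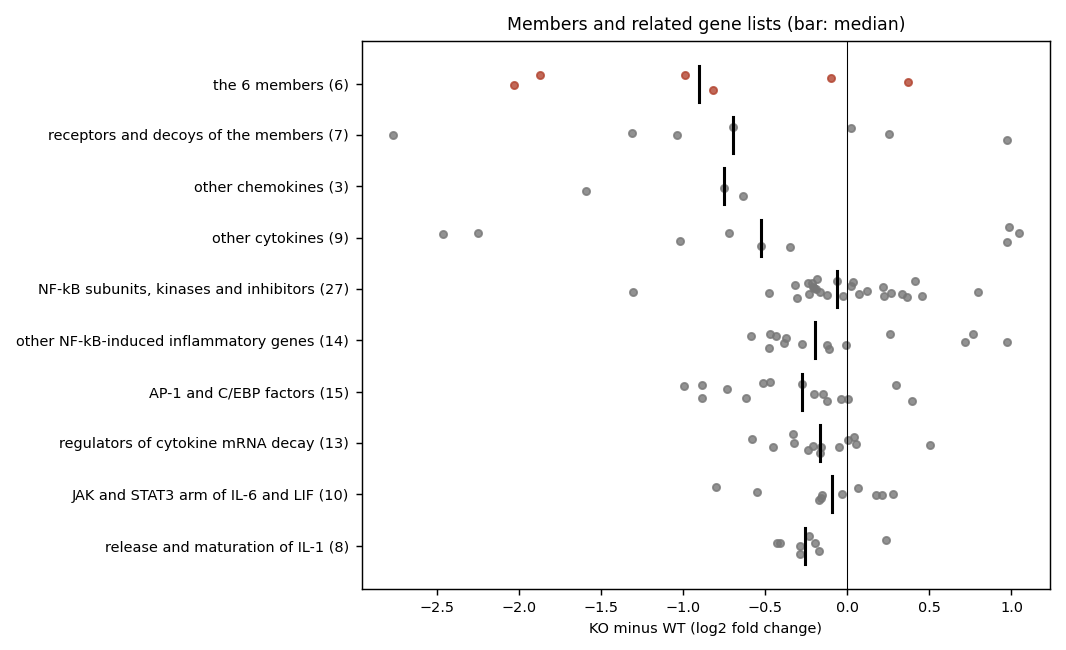
Log2 fold change of KO against WT (horizontal axis) for the 6 members (red, top row) and for the tested genes of 9 related lists (grey); the number tested stands in parentheses and black bars are medians. The members' median is -0.91 and that of the NF-kB genes is -0.06. The filter let IL6 in through WT alone, so the members' median supports nothing by itself.

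Of 25 other NF-kB-induced inflammatory genes 19 had values and 14 were tested, with a median of -0.20; limma called 0 for KO against WT and 1 was below 0.05 unadjusted. That gene was BIRC2, an inhibitor of apoptosis on chromosome 11, at -0.48 ± 0.15 (SE, limma, adjusted p = 0.205), which was 0.30 after position centring and passed without KO2 (-0.61, adjusted p = 0.0378). ICAM1, an adhesion molecule for leukocytes, was at 4.65, 4.71, 4.89 and 4.43 in KO1 to KO4, against 4.72, 4.85 and 5.27 in WT1 to WT3. TNFAIP2 and TNFAIP8 had log2 fold changes of 0.72 ± 0.50 and -0.37 ± 0.20. Of the 17 AP-1 and C/EBP factors, which act with NF-kB at such promoters, 15 were tested, with a median of -0.28, 12 negative and 3 positive; limma called 0 and 2 were below 0.05 unadjusted. MAFF was at 1.20, 1.41, 1.60 and 1.00 against 2.20, 1.74 and 2.16, below WT in every clone (-0.73 ± 0.20, limma, adjusted p = 0.157). CEBPD, a factor induced in inflammation, was at 4.32, 3.49, 3.74 and 4.53 against 4.95, 4.92 and 4.85, also below WT in every clone (-0.88 ± 0.25, adjusted p = 0.170). Of the 15 tested factors 3 had all clones below all WT samples, an order seen in 10.1% of all tested genes. CEBPB, first described as a nuclear factor for IL-6 expression, had a log2 fold change of -0.52 ± 0.24 (adjusted p = 0.341), and BATF3 -0.47 ± 0.23 (adjusted p = 0.371).

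The steps after transcription and after secretion gave no calls for KO against WT with limma. All 13 regulators of cytokine mRNA decay were tested, with a median of -0.17 and 1 below 0.05 unadjusted, RC3H2, which encodes the RNA-binding protein roquin-2 (0.50 ± 0.21 SE, limma, adjusted p = 0.313). ZFP36L1 and ZFP36L2, which bind AU-rich elements of cytokine mRNAs, were at -0.33 ± 0.18 and -0.24 ± 0.19, and the RNase gene ZC3H12C was at -0.45 ± 0.23, or 0.25 after position centring. Of 13 genes of the JAK and STAT3 arm 10 were tested, with a median of -0.09 and 0 below 0.05 unadjusted. STAT3 itself was at 3.73, 3.95, 3.78 and 4.08 in KO1 to KO4, against 3.52, 3.60 and 3.72 in WT1 to WT3, a log2 fold change of 0.27 ± 0.12 (limma, adjusted p = 0.339) that was -0.09 after position centring. SOCS3, which STAT3 induces and which blocks gp130 signalling, was at 1.07, 3.16, 1.23 and 2.47 against 2.51, 2.77 and 3.07. PIM1 and PTPN11 were at -0.55 ± 0.31 and -0.15 ± 0.13, the second of which was 0.00034 after position centring. Of 15 genes for release and maturation of IL-1, 8 were tested, with a median of -0.26 and 1 below 0.05 unadjusted. That was CAPN1, a calpain protease gene on chromosome 11, at -0.43 ± 0.09 (limma, adjusted p = 0.0982). Over 17 other settings its log2 fold change ran from -0.45 to -0.30 (limma, adjusted p 0.0692 to 0.489). CAPN2, HAX1 and CASP4 were at -0.41 ± 0.19, -0.29 ± 0.19 and -0.23 ± 0.16, and CASP4 was at 0.47 after position centring.

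The genes whose profile over the 7 libraries was most like that of each member were found by the root-mean-square difference of log2 RPKM, after the WT mean had been subtracted, among 9798 genes with a mean of at least 1 in a group. For IL6 these were FADS2, a fatty acid desaturase gene, at 0.27, HEY1, a Notch target gene, at 0.31, and PITPNC1 at 0.38. FADS2 was at 2.32, 2.29, 3.09 and 3.12 in KO1 to KO4, against 4.14, 4.37 and 4.60 in WT1 to WT3. For CCL20 they were the semaphorin gene SEMA4G at 0.44, ANG, which encodes the RNase angiogenin, at 0.66 and SGPP2, a sphingosine phosphate phosphatase gene, at 0.67. SEMA4G was at -3.47, 2.60, 0.50 and -2.08 against 1.51, 1.47 and 1.49. For CXCL2 the nearest was PDCD4 (0.23), for CXCL5 the kinase gene MAPK11 (0.26), for CXCL8 MOCOS (0.32) and for LIF the methylcytosine dioxygenase gene TET3 (0.15).

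**Figure D5:**
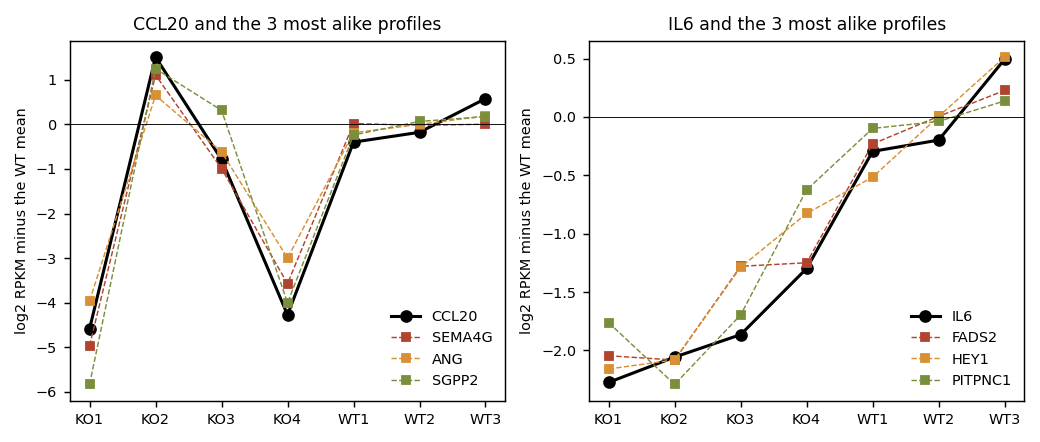
Log2 RPKM minus the WT mean (vertical axis) in the 4 KO clones and the 3 WT samples for CCL20 (left, black) and IL6 (right, black) with the 3 genes of most alike profile (coloured, dashed). Lines join the libraries of a gene for reading only. CCL20 and its nearest gene SEMA4G both dip in KO1 and KO4 and peak in KO2.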

How the data were processed

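RNA of BHT-101 cells was sequenced from TruSeq libraries, per the labels' protocols. The authors deposited log2 RPKM for 13142 genes; the submitters' processing notes name edgeR, HTSeq 0.11.2, STAR 2.5.3a and Trim Galore 0.4.1, and build hg38, and the annotation, strand setting, prior count and filter are not given in the sources used here. Genes without reads share 1 value per gene length (GENCODE release 29 exons; 12312 genes matched), so the steps between low values gave each library's prior count and size, and reads were estimated from these; 80.7% to 91.8% of values up to 20 reads came out whole within 0.1 reads. Genes with log2 RPKM above 0 in at least 3 libraries were tested (11154) with limma 3.58.1 in R 4.3.3 on the deposited log2 values (trended moderated variances, Benjamini-Hochberg adjustment over all tested genes, adjusted p under 0.05), KO against WT and each clone against WT with the residual spread taken from WT. The fits were tested on simulated data in which every library took the spread of the WT samples. The larger spread among the clones was not simulated. The labels call the WT samples biological replicates and each clone has 1 library. Alternatives covered filters, scaling, pseudocounts of 1 and 0.1 RPKM, the trend, position centring, each library left out, a replicate block and, chosen after seeing the data, voom on the estimated reads. From each of 9 lists up to 4 genes with the smallest unadjusted p were named, with NFKBIA and TNFAIP3, ASH1L, and up to 3 most alike genes per member. Members and lists were chosen with earlier results of these data known.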

Additional observations from a re-analysis of the deposited data

Results flagged for a closer look

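In 43 genes (the 6 members and 37 named genes of the lists), 4 had 1 clone far from the other clones, where the gap to the nearest clone, as a share of the range of the 4, exceeded Dixon's 95% critical value. Chance alone gives this in about 1 of 20 groups. CXCL5 in KO4 was at log2 RPKM 1.43, against 3.16 to 3.28 in the other clones. BIRC2 in KO2 was at 3.60, IL18 in KO2 at 3.19 and CLCF1 in KO3 at 3.66, each above the other 3 clones. These 3 genes all lie on chromosome 11. No cause was tested.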

How the results depend on the processing

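For KO against WT, the 6 genes stayed short of the threshold in all 17 alternative settings that could be run, and 97 of 99 values kept their direction. The exceptions are CXCL5, at 0.35 in the replicate block and -0.27 to 0.35 with 1 library left out. The filter above log2 RPKM 1 left no value for CXCL8, CCL20 and IL6. The count of genes called, 46 (19 higher, 27 lower), was 30 (10 higher) with that filter, 75 (55 lower) with 1 RPKM added, 114 (64 higher, 50 lower) with quantile normalization, 1 (1 higher, 0 lower) after position centring, and 11 higher with voom. It was 0 to 236 (0 to 94 higher, 0 to 142 lower) with 1 library left out: 0 without WT1, WT2 or WT3, 1 without KO4, 87 without KO3 and 236 without KO2. The numbers 1 to 3 occur in both groups but name clones in one and replicates in the other; deviations of same-numbered samples correlated at 0.06, 0.07 and -0.01, and the replicate block gave 0 calls (0 higher, 0 lower). With 1 WT sample left out, 3088 to 5833 genes were called in KO1, 1743 to 4867 in KO2, 1706 to 4906 in KO3 and 1153 to 3972 in KO4, the lowest without WT2; position centring gave 3269 in KO1 and 2526 in KO3. Of 252 values of members in single clones 224 kept direction and call, 14 lost a call, 7 gained one and 7 turned sign, all 7 from calls that had not passed. CXCL2 in KO2 ran from -0.19 to 0.49, CXCL8 in KO3 from -0.40 to 0.20 and LIF in KO4 from -0.11 to 0.15 with 1 WT sample left out. CXCL8 in KO3 was 0.050 with quantile normalization, and position centring gave -0.038 for CXCL5 in KO3 and -0.018 for LIF in KO4. Position centring also reversed BIRC2 (0.30), CASP4 (0.47), ZC3H12C (0.25), STAT3 (-0.085), TRAF2 (-0.022) and PTPN11 (0.00034), and TNFAIP3 ran from -0.23 to 0.40 with 1 library left out. Of 626 values of list genes 614 kept direction and call and 3 gained a call: IL18 with quantile normalization and without KO2, and BIRC2 without KO2. Except where a setting removes samples or genes, the cause was not tested. The low reads of CCL20 in KO1 and KO4 limit how well its size is known there.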
